A study of Mus musculus with 2 samples.

Results

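Zinc transporters and metallothioneins are 32 genes, chosen by name, among the 34797 gene names on an array that compared ALDH-positive with ALDH-negative 4T1 cells. They are the 10 *Slc30a* genes, the 14 *Slc39a* genes, the metallothionein genes *Mt1* to *Mt4*, the zinc sensor gene *Mtf1* and 3 further metal transporter genes, *Slc11a2*, *Slc31a1* and *Slc40a1*, and 41 of the 55681 probes carry their names. No measured value entered the rule, but the genes were chosen with earlier results of these data known. 4T1 is a mammary carcinoma line from the BALB/C mouse strain. Untreated cultures were stained with ALDEFLUOR, a fluorescent substrate assay of aldehyde dehydrogenase (ALDH) activity, and sorted into cells of high activity, which the sample labels call cancer stem cell, and cells of low activity, labelled anti cancer stem cell. They are given here as ALDH-positive and ALDH-negative. Total RNA of each population was hybridised to 1 array, with 1 colour (Cy3), so nothing could be tested against replicates, and precision is limited by having 1 array on each side.

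Zinc crosses membranes through a pair of transporter families that mostly work in opposite directions. Most ZnT proteins, encoded by *Slc30a* genes, carry zinc out of the cytosol, either across the plasma membrane or into vesicles and the Golgi. The ZIP proteins, encoded by *Slc39a* genes, carry it into the cytosol. Exporter and importer are used below as names of these families, not of the direction or metal of each member. Metallothioneins are small cysteine-rich proteins that bind zinc, copper and cadmium. The zinc finger factor MTF1 senses free zinc and activates metallothionein genes and *Slc30a1* through metal response elements. In mammary epithelium zinc transporters also serve the loading of zinc into milk.

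All signals below are quantile-normalized intensities, and ratios set ALDH-positive over ALDH-negative cells. A probe is called measured if it was well above background on at least 1 array, and the brightest measured probe stands for a gene. Over the 28585 measured probes the median log2 ratio was 0.49 before normalization, the ALDH-positive array being the brighter, and 0.015 after it. The error of a log2 ratio is the scanner software's own. It was 0.20 for most genes here, since it rests on a fixed share of a bright signal, whereas probes printed several times varied within an array with a median SD of 0.060 and 0.049 (log2). Neither covers the spread between cultures. A gene is called higher with a ratio of at least 1.5 and a Z-score of at least 2.0, and lower with a ratio of at most 0.75 and a Z-score of at most -2.0, the limits in the study's methods. The Z-score here compares a probe with its 250 dimmer and 250 brighter neighbours in mean log2 signal, as the gap to their mean log2 ratio divided by their SD. Over the array, the spots whose row or column falls in the last eighth made up 25.1% of the measured probes, and calls were more frequent among them, with 3.67% higher and 4.20% lower there against 0.706% and 2.43% elsewhere, so a spot in this area, called the array edge below, is pointed out where it touches a result.

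The cells carried the markers of mammary epithelium. All 6 epithelial markers were measured, among them the keratin gene *Krt8* with signals of 106882 and 120908 in ALDH-negative and ALDH-positive cells. The leukocyte marker *Ptprc*, the endothelial markers *Cdh5* and *Tek* and the fibroblast markers *Pdgfrb* and *Dcn* were not well above background on either array. The summed signal of the measured markers was 328458 and 374325 for the epithelial list, 8980.0 and 5492 for the 3 measured of 6 leukocyte markers on the array, 203 and 189 for the 3 of 5 fibroblast markers and 7319 and 5426 for the 2 of 4 endothelial markers. The leukocyte marker *Itgam* and the endothelial marker *Kdr* were called lower in ALDH-positive cells, with log2 ratios of -0.94 and -0.43, and the epithelial marker *Cldn7* higher, with 0.85. The leukocyte and endothelial lists did not move one way. Of the leukocyte list, *Cd68* was at 0.44 (error 0.20) and *Cd3e* at -0.47 (error 0.20). *Pecam1* of the endothelial list was at 0.21 (error 0.30). All 3 measured fibroblast markers were below 0, *Col1a1* at -0.70 (error 0.33) and the others within their errors. None of these was called. The leukocyte and endothelial sums are mostly the signals of *Itgam* and *Kdr*. Both populations were sorted from cultures of the 4T1 line, and the part of these markers in the results below was not tested. Fewer cells that carry a transcript cannot be told apart from less of it per cell. The 7 measured of 9 ALDH isoforms active in the ALDEFLUOR assay had log2 ratios from -0.049 to 0.23, and none was called.

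Of the 32 genes, 27 were measured and 26 of these on both arrays. None was higher and 2 were lower in ALDH-positive cells, the exporter genes *Slc30a2* and *Slc30a7*. Among all 20386 measured genes, 1.6% were higher and 3.28% were lower, and the 2 lower genes are 7.41% of the measured members. The median log2 ratio of the 27 genes was -0.00045 against 0.020 for all measured genes. Log2 ratios above 0 were seen in 13 of the 27, or 48.1%, against 53.9% of all measured genes. Farther from 0 than its own error were 11 of the 27, or 40.7%, against 37.5% of all. No member had a ratio of at least 1.5, against 5.72% of all measured genes, and 4 had a ratio of at most 0.75, against 9.84% of all, namely *Slc30a2*, *Slc30a7*, *Slc39a2* and *Slc39a9*. All 4 lay at the array edge, with 6 further members, *Slc30a1*, *Slc30a4*, *Slc30a6*, *Slc39a7*, *Slc39a14* and *Mt4*, and the 17 measured members elsewhere had log2 ratios from -0.21 to 0.32. As a set, then, these genes lay about where the array as a whole lay, and the differences sat in a few members. *Slc30a3*, *Slc30a8*, *Slc30a10*, *Slc39a5* and *Slc39a12* were not well above background on either array. Their products include the zinc transporters of synaptic vesicles (*Slc30a3*) and of insulin granules (*Slc30a8*) and a manganese exporter (*Slc30a10*).

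**Figure D1:**
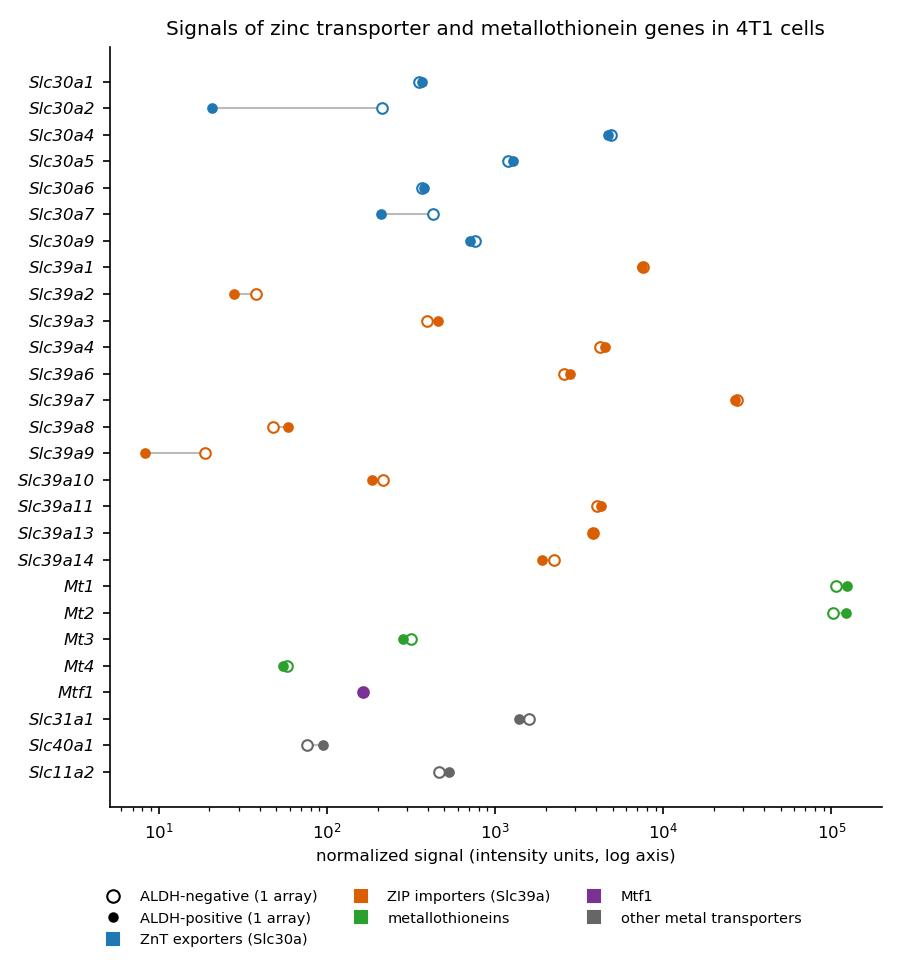
Normalized signal (horizontal log axis, intensity units) of the 27 measured genes in ALDH-negative (open circles) and ALDH-positive 4T1 cells (filled circles), 1 array each, with a line joining both values of a gene and colours for the gene groups. The circles of most genes lie close together, while *Slc30a2* falls from 213 to 20.8 and *Slc30a7* from 429 to 210.0; signals of different genes come from different probes and are not comparable.

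The exporters were the group that held both lower genes. Of 10 *Slc30a* genes 7 were measured, with a median log2 ratio of -0.072, 3 above 0 and 4 below. *Slc30a2* encodes ZnT2, which fills vesicles with zinc and is known for zinc secretion into milk. Its signal fell from 213 in ALDH-negative to 20.8 in ALDH-positive cells (log2 ratio -3.36, error 0.29, Z-score -6.21). The ALDH-negative value was thus 10.3 times the ALDH-positive one, and this was the lowest ratio of the 27 genes. *Slc30a2* was measured with 1 probe, for transcript NM_001039677, which the array files place at chr4:133908440-133908499 on assembly NCBI37.

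The surroundings of the *Slc30a2* spot on the array were uneven. It lay in column 153, at the array edge, and 12 of the 78 other measured probes within 6 rows and 6 columns of it were lower, or 15.4%, against 2.90% of the measured probes printed once. The median log2 ratio of these 78 neighbours was -0.039 and their SD was 1.12. The pixels of the spot also varied on the ALDH-negative array, with an SD of 38.9% of the mean, above 99.3% of the 1673 spots of similar brightness, whose median was 19.4%. On the ALDH-positive array the same figure was 21.6%, at percentile 55.8. The scanner software marked neither spot as non-uniform. The part of these features in the *Slc30a2* ratio was not tested. Left without background subtraction, or corrected with normexp and an offset of 50, *Slc30a2* was still lower, at a log2 ratio of -1.61 each time. Both choices leave or add a constant amount in the signals, which draws the ratio of a dim signal towards 0.

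*Slc30a7* encodes ZnT7, which carries zinc into the Golgi. The signals of its brightest probe were 429 and 210.0 (log2 ratio -1.03, error 0.21, Z-score -4.06). The gene had 3 measured probes, all for transcript NM_023214. The others, which were much dimmer and close to background, did not share this difference. A second probe had signals of 27.4 and 24.9 (log2 ratio -0.14, error 0.32). The remaining one, with signals of 16.0 and 18.5, exceeded background clearly on the ALDH-positive array alone (log2 ratio 0.21, error 0.44). On assembly NCBI37 the brightest probe lies at chr3:115649542-115649601 and the others at chr3:115645497-115645556 and chr3:115645002-115645061. With the median of the 3 probes, the log2 ratio of the gene was -0.14 and it was no longer called, nor was it with a Z-score over all probes. All 3 spots lay at the array edge. None of the 78 measured neighbours of the brightest probe was lower, while 6 were higher, or 7.69% against 1.46% of the measured probes printed once. Its pixels varied by 15.9% and 17.4% of the mean, at percentiles 37.4 and 45.2 of similar spots, near the middle of their distribution. The log2 ratios of its 78 neighbours had a median of 0.075 and an SD of 0.97. That SD was 1.12 around the *Slc30a2* spot and 0.63 over all measured genes, so this area was uneven too. The part of this in the *Slc30a7* ratio was not tested.

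The other 5 measured exporters lay within their error of 0. *Slc30a1* encodes ZnT1, the exporter of the plasma membrane and a target of MTF1. Its signals were 353 and 367 (log2 ratio 0.054, error 0.20). *Slc30a4*, the gene mutated in lethal milk mice, had 4905 and 4667 (log2 ratio -0.072, error 0.20). *Slc30a5* and *Slc30a6*, whose products pair to supply zinc to enzymes of the secretory pathway, had 1194 and 1285 with a log2 ratio of 0.11, and 368 and 377 with 0.037 (error 0.20 each). *Slc30a9* had 764 and 714 (log2 ratio -0.098, error 0.20), and -0.048 with its dimmer probe. The spots of *Slc30a1* and *Slc30a4* had about as many lower neighbours as that of *Slc30a2*, 12 of 87 and 11 of 86, and neither gene was called. High pixel variation was not particular to the *Slc30a2* spot. On the ALDH-negative array it was at percentiles 97.7 (*Slc30a1*), 96.3 (*Slc30a4*), 97.5 (*Slc30a6*), 82.1 (*Slc30a9*, brighter probe) and 45.8 (*Slc30a5*) of similar spots. On the ALDH-positive array *Slc30a4* was at 99.8.

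**Figure D2:**
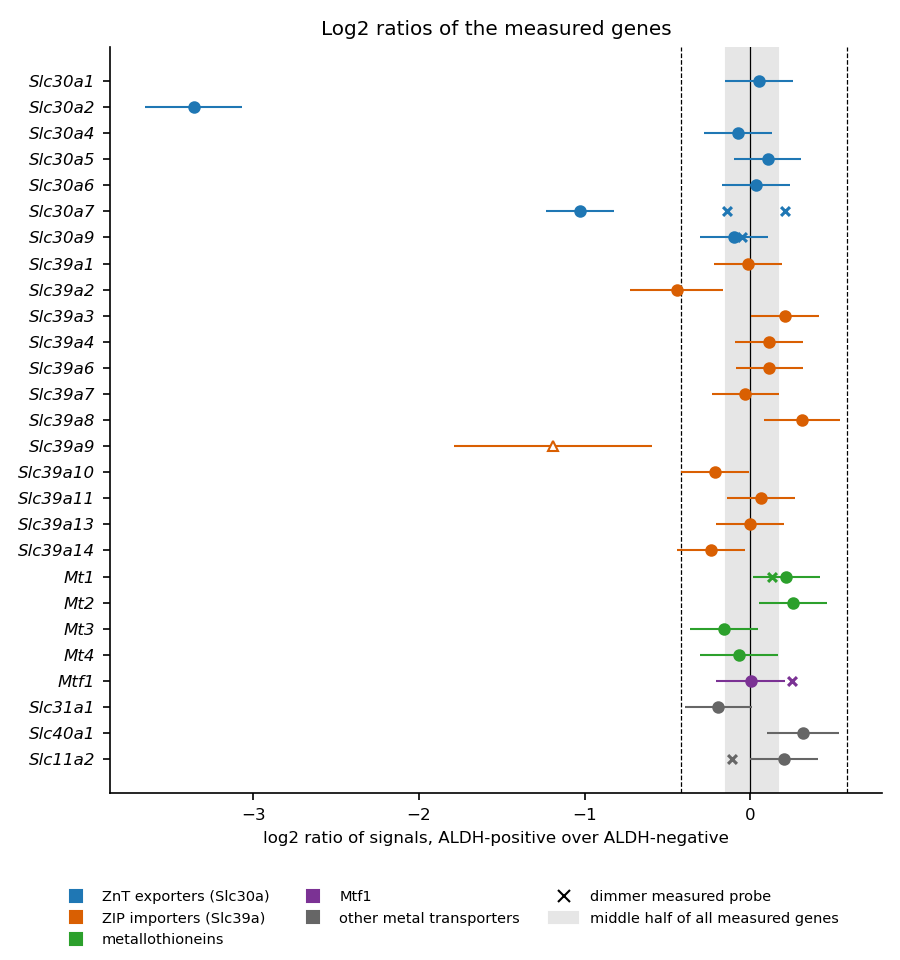
Log2 ratios (horizontal axis, ALDH-positive over ALDH-negative, 1 array per population) of the 27 measured genes, with the scanner error as bars and crosses for dimmer measured probes. An open triangle marks a gene that was not well above background on 1 array. Dashed lines lie at ratios of 0.75 and 1.5, and a grey band covers the middle of all measured genes, from -0.15 to 0.17. *Slc30a2* at -3.36 and the brightest *Slc30a7* probe at -1.03 stand apart, whereas the other *Slc30a7* probes lie near 0.

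The importers held no called gene. Of 14 *Slc39a* genes 12 were measured, 11 of them on both arrays, and their median log2 ratio was -0.0064, with 5 above 0 and 7 below. The importer median was 0.065 above the exporter median, less than the error of a single ratio, and genes are not replicates. Several bright importers were nearly level between the populations. *Slc39a7*, whose product ZIP7 releases zinc from the endoplasmic reticulum, had signals of 27343 and 26806 (log2 ratio -0.029, error 0.20). *Slc39a1*, a plasma membrane importer, had 7545 and 7481 (log2 ratio -0.012, error 0.20). *Slc39a13*, needed for connective tissue, had 3841 and 3840.0 (log2 ratio -0.00045, error 0.20). *Slc39a11* had 4064 and 4255 (log2 ratio 0.066, error 0.20), and its other probe was not well above background.

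Above these lay *Slc39a8*, *Slc39a3*, *Slc39a6* and *Slc39a4*. *Slc39a8*, an importer of zinc and manganese, had the highest log2 ratio of the importers, 0.31 (error 0.23), from signals of 47.6 and 59.1. Without background subtraction, which draws the ratios of dim signals towards 0, it was at 0.13, below *Slc39a3* at 0.19. *Slc39a3* had 393 and 455 (log2 ratio 0.21, error 0.20). *Slc39a6*, known as LIV-1 in breast cancer, had 2567 and 2783 (log2 ratio 0.12, error 0.20). *Slc39a4*, the zinc uptake gene of the intestine, had 4188 and 4530.2 (log2 ratio 0.11, error 0.20). The values of *Slc39a6* and *Slc39a4* lie within their error of 0.

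Below them lay *Slc39a9*, *Slc39a2*, *Slc39a14* and *Slc39a10*. *Slc39a9*, which encodes a ZIP of the Golgi, had signals of 18.9 and 8.28 (log2 ratio -1.19, error 0.60, Z-score -1.02). It was not well above background on the ALDH-positive array, so the size of its ratio is uncertain. Its ALDH-negative signal was 1.49 times 12.7, the lowest signal well above background on the ALDH-positive array. *Slc39a2* had 38.1 and 28.0 (log2 ratio -0.44, error 0.28). Its ratio of 0.735 passed the limit of 0.75 but its Z-score was -0.68. *Slc39a14*, an importer of zinc, iron and manganese, had 2229.7 and 1893 (log2 ratio -0.24, error 0.20). *Slc39a10*, the closest relative of *Slc39a6*, had 215 and 186 (log2 ratio -0.21, error 0.21). The spots of *Slc39a9*, *Slc39a2* and *Slc39a14* lay at the array edge, as did that of *Slc39a7*, and that of *Slc39a10* did not. For *Slc39a9* and *Slc39a2*, which were dim, the log2 ratios shrank to -0.18 and -0.14 without background subtraction. Background left in a dim signal must draw its ratio towards 0, so this shrinking says nothing on whether the genes differ. Of the 91 measured neighbours of the *Slc39a2* spot 9 were lower and 4 were higher.

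**Figure D3:**
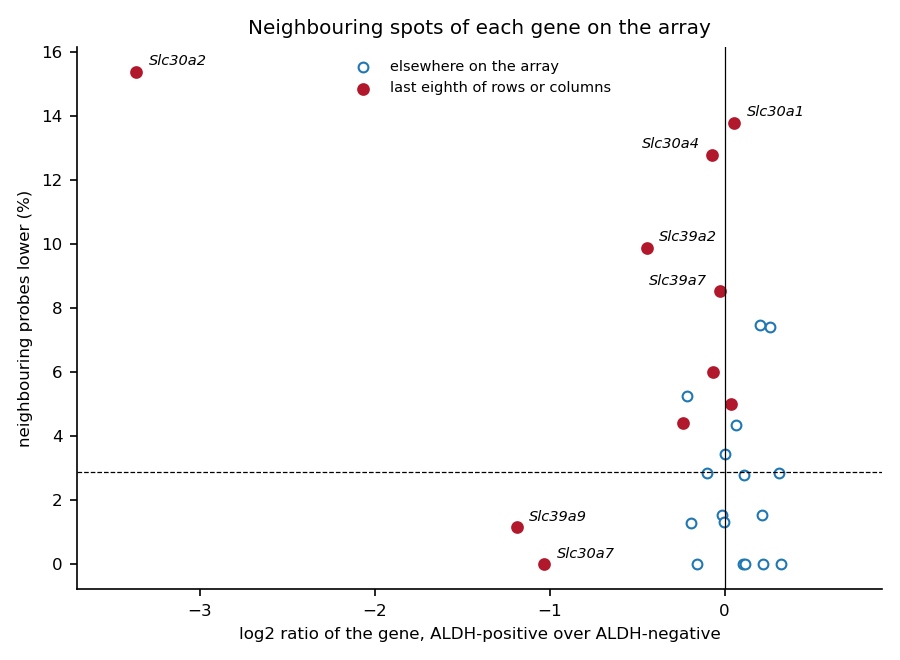
Share of the neighbouring measured probes on the array, within 6 rows and 6 columns, that were lower in ALDH-positive cells (vertical axis, percent) against the log2 ratio of each of the 27 measured genes (horizontal axis), with filled circles for spots at the array edge (last eighth of rows or columns) and a dashed line at 2.90%, the share over all measured probes printed once. *Slc30a2* has the largest share, 15.4%, *Slc30a1* and *Slc30a4* have 13.8% and 12.8% with log2 ratios near 0, and *Slc30a7* has 0.

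Among the metallothioneins, both widely expressed genes had slightly larger signals in ALDH-positive cells. All 4 were measured on both arrays, none was called, and the median log2 ratio was 0.077. *Mt1* had signals of 106215 and 123651 (log2 ratio 0.22, error 0.20, Z-score 1.69). Its second probe had 1036 and 1137 (log2 ratio 0.13, error 0.20). *Mt2* had 102343 and 122421 (log2 ratio 0.26, error 0.20, Z-score 1.97), just short of the limit of 2.0, but its ratio of 1.20 was far from 1.5. *Mt3*, known from brain, and *Mt4*, known from stratified epithelium, went the other way within their errors. *Mt3* had 316 and 284 (log2 ratio -0.16, error 0.21), and *Mt4* had 57.7 and 55.1 (log2 ratio -0.066, error 0.24). The *Mt2* spot lay outside the array edge, but 6 of the 81 measured probes around it were lower (7.41%), with an SD of 1.07. Around the brighter *Mt1* spot 0 of 75 were lower, with an SD of 0.25. Pixel variation was at percentiles 96.4 and 89.3 for *Mt2* and 94.7 and 96.4 for *Mt1* (ALDH-negative and ALDH-positive array). The part of these features in the ratios was not tested. The 4 genes are neighbours on chromosome 8, where the array files place their probes on assembly NCBI37 from 96662155, the start of the *Mt4* probe, to 96704224, the end of the brighter *Mt1* probe. The order of the group medians, with metallothioneins above importers above exporters, changed after a 75th percentile shift, with 0.026 for metallothioneins, 0.077 for importers and 0.0074 for exporters, and likewise without normalization.

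The zinc sensor gene *Mtf1* was level by its brightest probe, which had signals of 164 and 165 (log2 ratio 0.0030, error 0.21). A second probe had 114 and 136 (log2 ratio 0.26, error 0.21), and its last one was not well above background on either array. The 3 transporters of other metals also passed no limit. *Slc40a1*, which encodes the iron exporter ferroportin, had 76.0 and 94.9 (log2 ratio 0.32, error 0.22), the highest of the 27 genes. Without background subtraction, which draws the ratios of dim signals towards 0, it was at 0.21, below *Mt2* at 0.26. *Slc11a2*, the importer of divalent iron, had 463 and 533 (log2 ratio 0.20, error 0.20), but -0.11 with its dimmer probe. *Slc31a1*, the copper importer, had 1581 and 1385 (log2 ratio -0.19, error 0.20).

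Metal response elements, the sites that MTF1 binds, have the core TGCACNC or TGCGCNC. Both forms were sought on both strands of the promoter windows given by RefSeq on assembly GRCm38.p6, from 250 bases before to 50 after each start, and matches on opposite strands may overlap. RefSeq windows matched 26 of the 32 genes by symbol, all but *Slc30a8*, *Slc39a4*, *Slc39a6*, *Slc39a14*, *Slc11a2* and *Slc40a1*. Of their 31 windows 16 held a match, or 51.6%, against 25.7% of all 32851 windows, and *Mt2*, *Mt1*, *Slc30a4* and *Slc30a10* held 3 or more, as did 1.97% of all windows. Among the windows without these letters were those of *Mtf1* and *Slc30a7*. The stretches upstream of the start are printed for the known MTF1 targets *Mt1*, *Mt2* and *Slc30a1*, whose log2 ratios were 0.22, 0.26 and 0.054, and for *Slc30a2*. They run 5′ to 3′ along the gene, with the core in capitals, written as its reverse complement where it lies on the other strand.
*Mt1*, chr8:94179055-94179083, + strand: cggtcccgctgTGCACACtggcgctccag
*Mt2*, chr8:94172384-94172412, + strand: agcatcgcctcTGCACCCggcccctcggg
*Mt2*, chr8:94172479-94172507, + strand: cgcagacccttTGCGCTCagctcctttgc
*Mt2*, chr8:94172557-94172585, + strand: ggggggagggcGTGTGCAggctctgtccc
*Slc30a1*, chr1:191906727-191906755, + strand: acgggggttccGAGTGCAaagcaaagttt
*Slc30a2*, chr4:134343241-134343269, + strand: gccatcgtcccGCGCGCAacttcgagggc
*Slc30a2*, chr4:134343255-134343283, + strand: cgcaacttcgaGGGCGCAccgagagaggc
Counted to the start given by RefSeq, the core of *Mt1* ends 16 bases before it and those of *Mt2* 216, 121 and 43. That of *Slc30a1* ends 36 and those of *Slc30a2* 207 and 193 bases before it. Other starts and sites outside the windows were not looked at. *Mt1* held 2 more matches, and *Mt2* and *Slc30a1* 1 more each, that reach past the start. A match in these letters is a description and not a bound site.

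Other genes of metal handling also held no called gene. From a list of 37 genes of copper and iron handling, metal response and zinc sensing, 36 were on the array and 31 were measured, all of them on both arrays. None was higher or lower, against 1.6% and 3.28% of all measured genes, shares at which a list of this size holds few calls or none. A log2 ratio above 0 was seen in 21 of the 31, against 53.9% of all, and the median was 0.047 against 0.020. The highest log2 ratio was that of *Cp*, which encodes the copper protein ceruloplasmin, 0.52 (error 0.20), from signals of 2469 and 3541. Its Z-score of 2.94 passed the limit and its ratio of 1.43 missed it. *Ccs*, the copper chaperone of superoxide dismutase, had 3885 and 4613 (log2 ratio 0.25, error 0.20), and *Cox17*, a copper chaperone of mitochondria, 21.0 and 24.8 (log2 ratio 0.24, error 0.32). The lowest ratios were within their errors. They were those of *Sco1*, a copper protein of cytochrome oxidase assembly, with 107.3 and 93.7 (log2 ratio -0.20, error 0.22), of *Ncoa4*, the receptor for ferritin breakdown, with 2374 and 2156 (log2 ratio -0.14, error 0.20), and of *Fth1*, which encodes ferritin heavy chain, with 164102 and 153018 (log2 ratio -0.10, error 0.20). In that list the genes reported to respond to MTF1 or metals, *Gclc*, *Sepw1*, *Csrp1*, *Ndrg1* and *Hspa1a*, lay between -0.026 and 0.20.

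**Figure D4:**
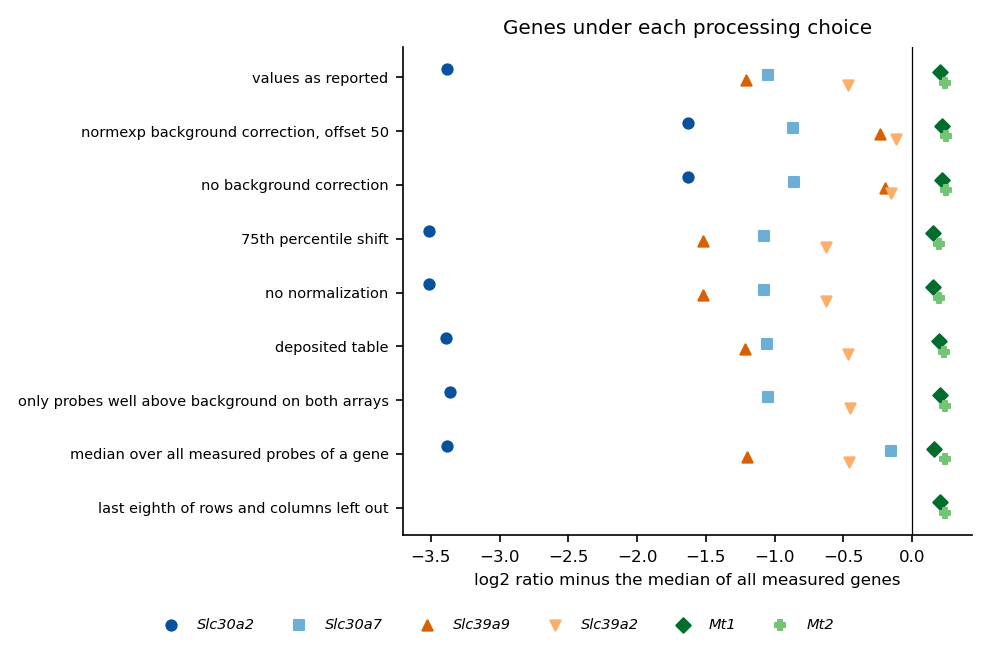
Log2 ratio of *Slc30a2*, *Slc30a7*, *Slc39a9*, *Slc39a2*, *Mt1* and *Mt2* minus the median of all measured genes (horizontal axis) under the reported processing and each other choice (rows), 1 array per population. After subtracting that median *Slc30a2* moves from -3.38 to -1.63 with either other background treatment, *Slc30a7* from -1.05 to -0.16 with the median of its probes, and *Mt1* and *Mt2* stay between 0.15 and 0.25, while genes are missing where a choice leaves out their probe.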

How the data were processed

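The RNA of 1 ALDH-positive and 1 ALDH-negative population was measured on 1-colour Agilent arrays of 1 slide. The authors read both scans with Feature Extraction of Agilent (per the labels 9.5.1.1, per the file headers 10.7.1.1). The deposited scanner files hold spot intensities (mean, local background, pixel SD, and the background-subtracted processed signal with an error). The authors' deposited table holds quantile-normalized intensities, and its log2 ratios differed from those used here by at most 0.010 for these probes. Of 62976 spots, 3671 control spots and the 135 and 116 outlier spots were left out. Log2 processed signals of repeated spots were averaged and quantile-normalized (Python 3.11.15, numpy 2.4.6, pandas 2.3.3; normexp with limma 3.58.1). The steps were tested on simulated data. The median background was 56 and 57, and 48.5% and 49.4% of probes were well above it. Every member was to be named, with values for the metallothioneins, *Mtf1*, the 3 other transporters, called members and the 4 highest and 4 lowest ratios of exporters and importers, and, of other metal genes, for called ones and the 3 highest and 3 lowest. The genes and lists were chosen with earlier results of these data known. Alternatives changed background correction, normalization, probe choice, Z-score, ratio limit and array area. A split of importers by protein motif was not run, since no protein sequences were used here. Of the leukocyte markers, 1 that was not measured is counted but not reported here.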

Additional observations from a re-analysis of the deposited data

How the results depend on the processing

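No gene of the set was higher under any of the 12 alternatives. The number of lower genes stayed at 2 except for 1 where the median of a gene's probes stood for it, 1 where the Z-score used the whole array as its reference, and 0 with the last eighth of the rows and columns left out, which removes the probes of both and leaves 17 measured genes. Without normalization the median of all measured genes was 0.51, and the medians were 0.47 for the exporters, 0.54 for the importers and 0.49 for the metallothioneins. All genes then had 2.53% higher and 1.74% lower. Of 205 gene values recomputed, 172 moved by less than their error and 26 of the other 33 were those without normalization. No paired analysis was possible because each population was hybridised once. Dim probes, such as those of *Slc39a9*, *Slc39a2* and *Slc30a2* in ALDH-positive cells and the dimmer *Slc30a7* probes, lay close to background, which limits their ratios.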
